A study of Homo sapiens with 17 samples.

Results

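The 10 genes described here are the α-tubulin genes TUBA1A, TUBA1B and TUBA1C, the β-tubulin genes TUBB, TUBB2A, TUBB2B, TUBB4B and TUBB6, the γ-tubulin gene TUBG1, and TTC5, whose protein reads nascent tubulin chains. They were chosen by name, with earlier results of these data known. Each was represented at each time point by the transcript with the highest total count. All 10 were found among the 15660 genes with a count at 36 h and the 17023 at 72 h, and all 10 passed the count minimum, a mean of at least 20 reads in the footprint and in the mRNA libraries, that left 9016 and 10896 genes for testing.

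HEK293 cells, a line derived from human embryonic kidney, were nucleofected with a ribonucleoprotein of the sgIntron guide, which targets intron 12 of JAK2, and either Cas9, which cuts the site, or dCas9, the catalytically dead form that binds without cutting and served as control. Ribosome footprints, the fragments of mRNA that ribosomes shield from nuclease, and total mRNA were sequenced. At 36 h there were 2 Cas9 libraries (replicates a and c) and 2 dCas9 libraries (d and e) of footprints, and 3 Cas9 (a, b and c) and 2 dCas9 (d and e) libraries of mRNA. At 72 h Cas9 and dCas9 were each represented by replicates e and f of footprints (n = 2) and a and b of mRNA (n = 2). Every group received the same guide and a protein, so no group was left unelectroporated, and 1 replicate was a plate pooled from 4 electroporations. The 36 h cells received synthetic guides and the 72 h cells guides transcribed in vitro, and the annotation differed too. The methods also name different aligners, while the processing notes of the submitters name HISAT2 2.1.0. An effect of time cannot be told apart from any of these differences.

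Footprint libraries held 689636 to 4868580 counted reads at 36 h, where dCas9 e and Cas9 a were the shallowest, and 3183555 to 8864461 at 72 h. The mRNA libraries held 25095505 to 42825667. All 7 markers of HEK293 cells had counts, with a summed mRNA level of 680 to 1158 CPM (counts scaled by library size). Of these 7, 6 had a mean mRNA level of at least 1 CPM at each time point. Of 7 erythroleukaemia markers 1 reached that mean, and of the white blood cell and liver markers 0. Markers of erythroleukaemia cells, white blood cells and liver summed to at most 1.73 CPM in mRNA and 8.14 CPM in footprints. The guide lies in an intron, so that JAK2 counts do not check the cut. JAK2 mRNA stood at 4.13 to 10.6 CPM and was too low in footprints to be tested.

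Microtubules are polymers of α- and β-tubulin heterodimers, and γ-tubulin nucleates them at centrosomes. Cells hold the pool of free heterodimers steady by autoregulation. When free tubulin is in excess, TTC5 binds the first residues of a tubulin chain as it leaves the ribosome and recruits SCAPER and the CCR4-NOT deadenylase, and the mRNA being translated is degraded. Because this decay needs a translating ribosome, footprints and mRNA of the same genes are both of interest.

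The coding starts show what TTC5 reads and how alike the genes are. Each is printed as the first 10 codons of the coding strand, with the first 4 codons in capitals, from GENCODE release 44 on hg38. TUBA1A, TUBA1B and TUBA1C have the same 30 bases, cut by an intron in each.
TUBA1B: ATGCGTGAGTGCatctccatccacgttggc
TUBB: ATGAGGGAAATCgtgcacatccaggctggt
TUBB4B: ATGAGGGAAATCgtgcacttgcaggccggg
TUBB2A: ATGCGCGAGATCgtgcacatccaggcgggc
TUBB2B: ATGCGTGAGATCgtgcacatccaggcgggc
TUBB6: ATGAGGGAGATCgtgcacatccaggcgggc
TUBG1: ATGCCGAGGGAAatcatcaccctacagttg
In α- and β-tubulin the first 4 codons encode the stretch at the N-terminus that TTC5 is known to contact, and TUBG1 starts with other codons. The printed starts lie at chr12:49129696-49131300 for TUBA1B (minus strand, across the intron), chr6:30720507-30720536 for TUBB (plus), chr9:137241361-137241390 for TUBB4B (plus), chr6:3157434-3157463 for TUBB2A (minus), chr6:3227514-3227543 for TUBB2B (minus), chr18:12308293-12308322 for TUBB6 (plus) and chr17:42609738-42609767 for TUBG1 (plus). The TTC5 gene itself spans chr14:20256558-20305960. TUBA1A (chr12:49184686-49189080, minus strand) and TUBA1C (chr12:49188736-49274600, plus strand) overlap at their 5′ ends on opposite strands.

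Near-identical copies limit what a count of 1 gene means. Of all 28-base words in its coding sequence, about the length of a footprint, TUBA1B shared 80.7% exactly with another tubulin gene, TUBA1A 73.9% and TUBA1C 74.2%. TUBB2A and TUBB2B each shared 77.1%. TUBB4B shared 22.4%, TUBB6 12.1% and TUBB 2.15%, and TUBG1 shared 45.3% with TUBG2, the second γ-tubulin gene. With words of 50 bases, the length of the mRNA reads, the shares were 68.3% for TUBA1B, 72.6% for TUBB2A and TUBB2B, 12.2% for TUBB4B, 1.55% for TUBB6 and 0 for TUBB. TTC5 shared none at either length. Of the 28-base words of TUBB, 61.1% recurred in a transcript of some other annotated gene, and genes that overlap the same locus were not set aside. Counts of TUBA1A, TUBA1B and TUBA1C, of TUBB2A and TUBB2B, and of TUBG1 and TUBG2 are therefore uncertain as single genes. TUBB, TUBB4B, TUBB6 and TTC5 shared fewer exact words with other tubulins. Within 2 mismatches, however, 70.9% of the 28-base words of TUBB4B, 66.1% of TUBB6 and 35.9% of TUBB lay near another tubulin. For 50-base words the shares were 33.5%, 25.1% and 3.51%, and for TTC5 0 at both lengths.

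In level per coding length, TUBA1B led in every library. Its mean was 1268 CPM per 100 codons in footprints and 702 in mRNA at 36 h, and 1174 and 643 at 72 h. TUBA1C and TUBA1A followed at 36 h with 1001 and 909 in footprints and 408 and 366 in mRNA, where the ranges of TUBA1C and TUBA1A overlapped in mRNA only. At 72 h TUBA1A stood above TUBA1C in footprints, 842 against 765 CPM per 100 codons, but the TUBA1C transcript kept there was longer, 500 against 429 counted codons at 36 h, and in plain CPM TUBA1C was the higher of the pair in every library at both time points.

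Among the β genes, TUBB and TUBB4B carried most of the counts and changed places between the time points. At 36 h TUBB4B stood at 773 CPM per 100 codons in footprints and 271 in mRNA, against 663 and 246 for TUBB, with ranges that overlapped in footprints and not in mRNA. At 72 h TUBB stood at 966 in footprints and 323 in mRNA, against 620 and 211 for TUBB4B, with no overlap in either. TUBB2B (200 in footprints and 68.6 in mRNA at 36 h) and TUBB2A (192 and 61.3) were next, and overlapped in footprints at both time points. TUBB6 ranked above TUBG1 in footprints, 71.9 against 51.8 CPM per 100 codons at 36 h, and below it in mRNA, 16.2 against 43.1. TTC5 was lowest throughout, with 7.68 CPM per 100 codons in footprints and 9.56 in mRNA at 36 h and 5.55 and 8.56 at 72 h.

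**Figure D1:**
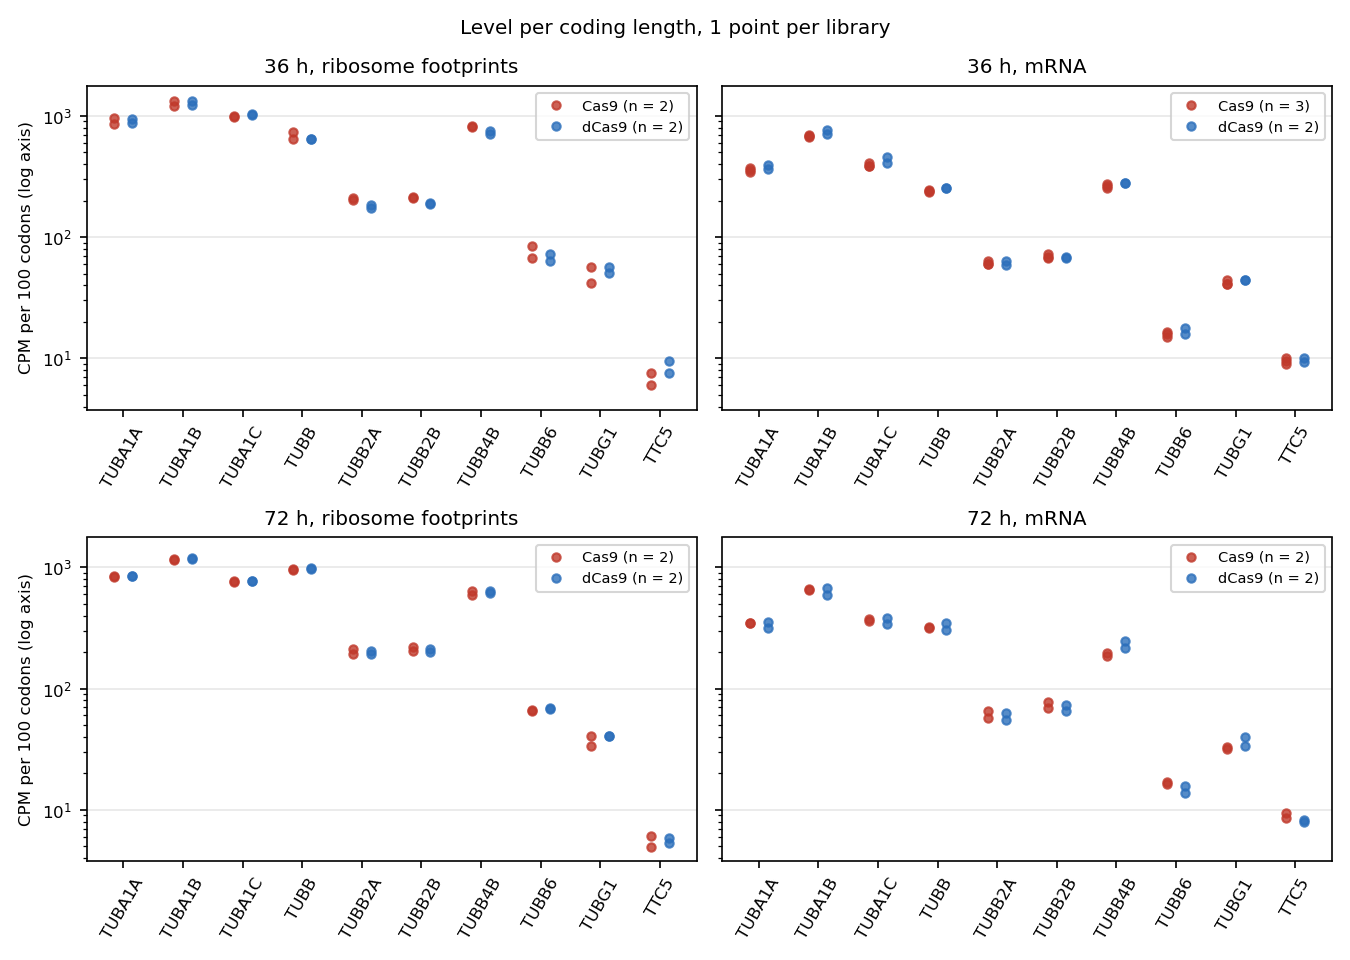
Level of each gene in every library, as CPM per 100 counted codons on a log axis, for footprints (left) and mRNA (right) at 36 h (top) and 72 h (bottom), with Cas9 libraries in red and dCas9 libraries in blue. Both nucleases give nearly the same order of genes, with TUBA1B at the top and TTC5 about 2 decades lower.

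As a share of the counts per codon of the 5 β genes, TUBB made up 33.5 to 35.7% of footprints and 36.1 to 37.8% of mRNA at 36 h, and 46.3 to 47.5% and 46.2 to 48.6% at 72 h. TUBB4B went the other way, from 39.7 to 41.9% of footprints and 40.2 to 41.4% of mRNA at 36 h to 29.4 to 30.4% and 27.9 to 33.3% at 72 h. TUBB2A, TUBB2B and TUBB6 held similar shares at both, TUBB6 for example 2.3 to 2.6% and 2.1 to 2.5% of mRNA. The shift showed in both kinds of library and with both nucleases. Time, guide, annotation and any difference in aligner cannot be told apart in it. Among the 3 α genes the shares moved less, with TUBA1B at 39.3 to 42.4% of footprints and 47.4 to 47.8% of mRNA over both time points.

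**Figure D2:**
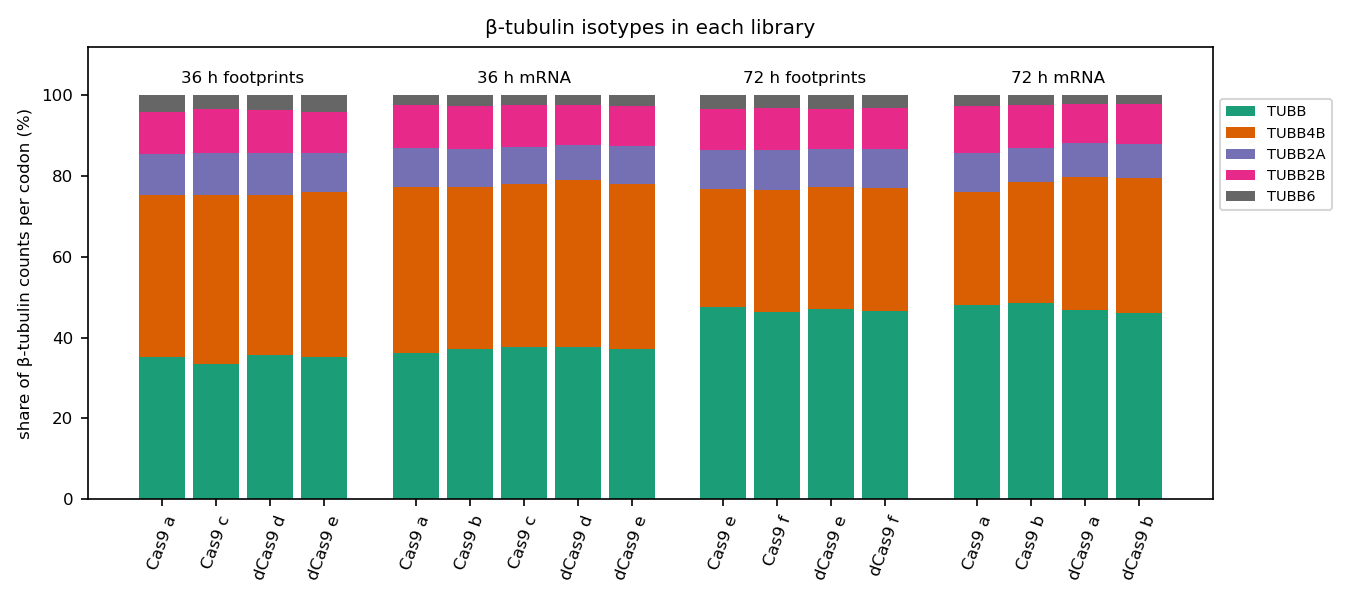
Share of each β-tubulin gene (percent) in the summed β-tubulin counts per codon, 1 bar per library, grouped by time point and library type. TUBB (green) holds 33.5 to 37.8% at 36 h and 46.2 to 48.6% at 72 h, and TUBB4B (orange) 39.7 to 41.9% and 27.9 to 33.3%.

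Cas9 was compared with dCas9 within each time point to ask whether a double-strand break changes tubulin mRNA or its translation. Effects are given as log2 fold changes (Cas9 minus dCas9) from edgeR's quasi-likelihood test with a standard error (SE), and genes with a Benjamini-Hochberg adjusted p under 0.1 were called, which is the false discovery rate the study used. Translational efficiency is the difference between the footprint and the mRNA change in the same fit. That fit takes the footprint and mRNA libraries of a time point together, so the SE and p of either change rest on the spread of both. Of 10 genes in 6 comparisons, 1 value passed, the fall of TUBB4B mRNA at 72 h.

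At 36 h no member passed in footprints, mRNA or translational efficiency, and no gene of the 9016 tested did (0.0% in each), with 862, 26 and 568 genes at an unadjusted p under 0.05. DESeq2 called 46 genes in footprints, 1 in translational efficiency and no member. The median log2 change of the members was 0.056 in footprints (0.015 over all tested genes), -0.078 in mRNA (-0.00027) and 0.12 in translational efficiency (0.010). The smallest adjusted p of any member was 0.571 in footprints and 0.810 in translational efficiency.

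The footprints of the 5 β genes all lay above 0 at 36 h, by 0.10 to 0.20 on the log2 scale, with adjusted p of 0.571 or more. TUBB4B had 3514 and 3437 CPM in Cas9 footprints and 3027 and 3165 in dCas9 footprints, a log2 change of 0.17 (SE 0.090). TUBB2A had 899 and 853 against 784 and 732 CPM, a log2 change of 0.20 (SE 0.11). Cas9 libraries of both genes lay above both dCas9 libraries, by less than 2 SE in the fit. TUBB (3091 and 2741 against 2712 and 2709 CPM) and TUBB2B (905 and 887 against 818 and 798 CPM) were separated in the same direction, and TUBB6 overlapped, with 360 and 284 against 273 and 309 CPM. Without Cas9 a, which leaves a single Cas9 footprint library, the change of TUBB6 was -0.020. TUBB2A and TUBB2B share most of their words, so they are not separate observations. Of the 28-base words of TUBB, TUBB4B and TUBB6, 35.9%, 70.9% and 66.1% lay within 2 mismatches of another tubulin. The 5 β genes may therefore not be fully separate observations either.

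The α genes lay nearer to 0 in footprints at 36 h. TUBA1A changed by 0.0067 (SE 0.097) and TUBA1B by 0.0087 (SE 0.092), and both groups overlapped. TUBA1C, with 4244 and 4160 against 4318 and 4448 CPM, changed by -0.061 (SE 0.091) and its groups did not overlap. Over the 10 genes, 4 were separated with Cas9 higher and 1 with Cas9 lower, where 16.3% and 14.1% of all tested genes were.

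In mRNA at 36 h, 4 members were separated with Cas9 lower and none with Cas9 higher, where 8.5% and 8.43% of all tested genes were. They were TUBA1B (2866 to 3019 CPM in the 3 Cas9 libraries, 3029 and 3295 in the dCas9 libraries), TUBA1C (1658 to 1741 against 1752 and 1945 CPM), TUBB (1000 to 1041 against 1075 and 1079 CPM) and TUBB4B (1087 to 1171 against 1187 and 1190 CPM). The log2 changes ran from -0.13 for TUBA1C (SE 0.082) to -0.076 for TUBB (SE 0.085). TUBA1B shares 45% of its 50-base words exactly with TUBA1C, so they are not separate observations. TUBA1A, at 1470 to 1596 against 1574 and 1705 CPM, overlapped. TUBB2A and TUBB2B changed by 0.005 and 0.024. TUBG1 stood at 176 to 192 CPM with Cas9 and at 192 and 189.5 CPM with dCas9, and TUBB6 at 63.3 to 70.3 against 68.1 and 75.4 CPM, and both overlapped. Their footprints rested on fewer reads, 153 to 1032 for TUBG1 and 192 to 1284 for TUBB6, and the footprint change of TUBG1 was -0.13 (SE 0.16).

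At 72 h mRNA gave the only member that was called. TUBB4B, a broadly expressed β-tubulin, stood at 786 and 839 CPM in Cas9 replicates a and b and at 1043 and 928 CPM in dCas9 replicates a and b. Both Cas9 libraries lay below both dCas9 libraries, and the log2 change was -0.28 (SE 0.084, edgeR adjusted p = 0.0865). Of all tested genes 5.63% were called, 0.422% higher and 5.2% lower with Cas9, so that 1 of 10 members is close to the share of all genes. The call did not hold everywhere. In 11 alternatives the change stayed below 0, between -0.42 and -0.18, and passed in 7. The call was lost when mRNA libraries were fitted alone, where the SE no longer draws on footprints (-0.28, SE 0.11, edgeR adjusted p = 0.282). It was also lost without Cas9 a (-0.25), Cas9 b (-0.36) or dCas9 a (-0.18).

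The footprints of TUBB4B were not called at 72 h. The Cas9 footprint libraries held 2511 and 2714 CPM and the dCas9 libraries 2617 and 2721 CPM, which overlap, with a log2 change of -0.031 (SE 0.084). Translational efficiency therefore came out at 0.25 (SE 0.12, edgeR adjusted p = 0.458), not past the threshold, and at 36 h at 0.25 (SE 0.12, adjusted p = 0.810). Without dCas9 mRNA replicate b, which leaves a single dCas9 mRNA library, translational efficiency at 72 h came out at 0.38. Within the β counts, TUBB4B made up 27.9 and 29.9% of mRNA in the Cas9 libraries and 32.8 and 33.3% in the dCas9 libraries at 72 h, against 29.4 and 30.2% and 30.2 and 30.4% of footprints.

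Of the other members, TUBG1 mRNA was also lower with Cas9 at 72 h, at 142 and 138 against 173 and 144 CPM, with a log2 change of -0.18 (SE 0.11) that did not pass (edgeR adjusted p = 0.437). TUBB6 mRNA was higher, at 71.7 and 69.1 against 67.5 and 58.4 CPM, a log2 change of 0.16 (SE 0.10, edgeR adjusted p = 0.433), while its footprints, at 282 and 280 against 293 and 288 CPM, lay slightly lower. Groups were separated in mRNA for 2 members with Cas9 higher (TUBB6 and TTC5) and 2 with Cas9 lower (TUBB4B and TUBG1), where 23.8% and 25.8% of all tested genes were, and in footprints for 1 with Cas9 lower (TUBB6), where 15.8% were. None was separated upward in footprints, against 16% of all genes.

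TUBB, at 1354 and 1359 CPM in Cas9 mRNA and 1486 and 1284 CPM in dCas9 mRNA, changed by -0.030 (SE 0.081) at 72 h. TUBA1B, at 2821 and 2837 against 2889 and 2569 CPM, changed by 0.052 (SE 0.076). In both genes the dCas9 libraries lay on either side of the Cas9 pair, and dCas9 b was the lowest library. Without dCas9 b, which leaves a single dCas9 mRNA library, the change was -0.19 for TUBB and -0.36 for TUBG1. The mRNA changes of the members therefore depend on this library. Without it the median change of the members in mRNA was -0.090, against 0.047 with all libraries and 0.14 without dCas9 a.

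The α and β members had footprint changes of -0.047 to 0.036 at 72 h. TUBA1B had 5091 and 5005 CPM with Cas9 and 5063 and 5121 with dCas9, and TUBB 4045 and 4145 against 4079 and 4161. The changes were -0.013 (SE 0.077) and -0.0087 (SE 0.081). TUBA1A (3693 and 3563 against 3662 and 3635 CPM), TUBA1C (3832 and 3796 against 3828 and 3845 CPM), TUBB2A (824 and 895 against 816 and 866 CPM) and TUBB2B (870 and 931 against 848 and 908 CPM) also overlapped. In mRNA the same 4 genes overlapped too, with log2 changes of 0.048, 0.017, 0.047 and 0.082. The median absolute log2 change of the 10 members in footprints was 0.022, against 0.11 over all 10896 tested genes, most of which have fewer counts. No member and no gene passed in footprints (0.0% of 10896, with 396 at an unadjusted p under 0.05, and no gene by DESeq2), and in translational efficiency 78 genes (0.716%) but no member did.

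TTC5, the reader, had no called change in mRNA, footprints or translational efficiency. Its mRNA stood at 37.4, 40.0 and 41.9 CPM in Cas9 and 42.2 and 39.2 CPM in dCas9 libraries at 36 h, and its footprints at 25.3 and 31.7 against 31.7 and 40.2 CPM. These footprints rested on 22 and 74 reads with Cas9 and on 149 and 25 with dCas9, so that the log2 change of -0.22 had an SE of 0.28. At 72 h mRNA was 40.0 and 36.2 against 34.8 and 33.3 CPM, a log2 change of 0.16 (SE 0.14, edgeR adjusted p = 0.569), and footprints were 20.9 and 25.5 against 22.6 and 24.5 CPM. The mRNA groups were separated at 72 h, and all others overlapped.

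**Figure D3:**
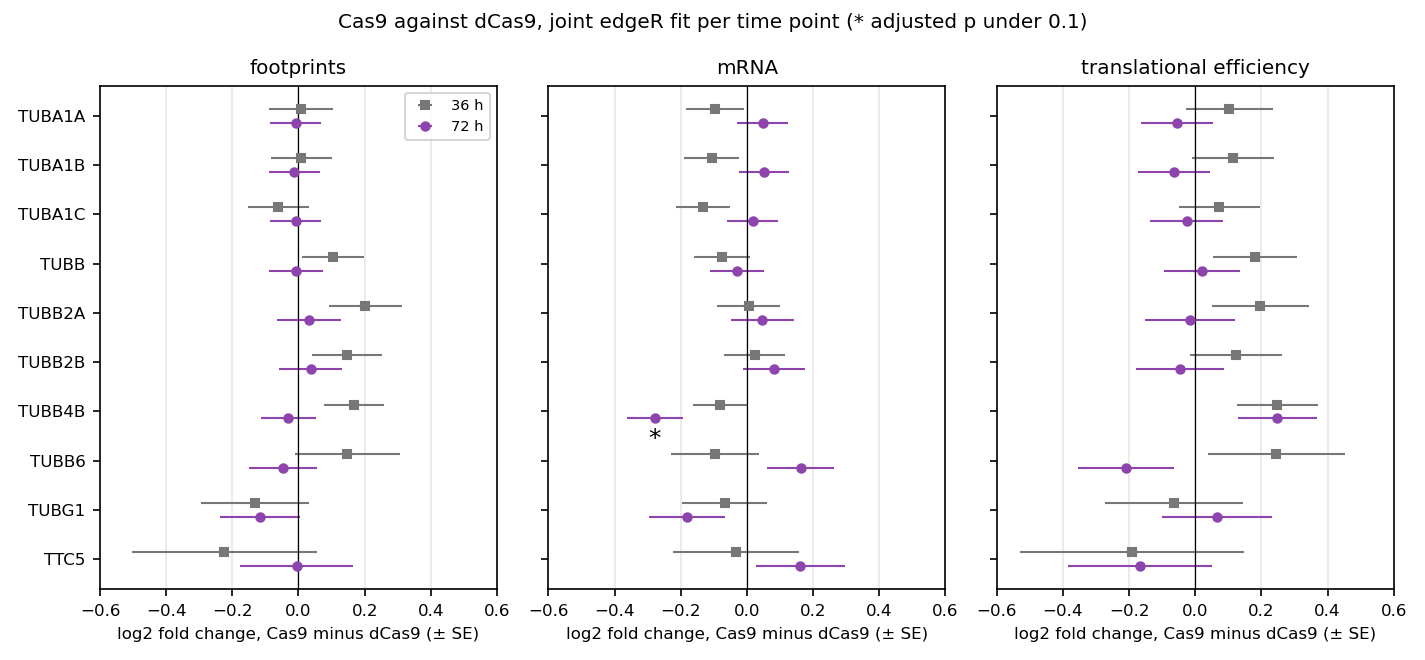
Log2 fold change (Cas9 minus dCas9, points) with its SE (bars) for each gene in footprints, mRNA and translational efficiency at 36 h (grey squares) and 72 h (purple circles). The asterisk marks the only adjusted p under 0.1, TUBB4B mRNA at 72 h at -0.28, and the β genes of the 36 h footprints sit at 0.10 to 0.20.

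Footprints per mRNA set the tubulins apart from one another. As a ratio of mean footprint CPM to mean mRNA CPM, TUBA1B stood at 1.72 to 1.87 over both nucleases and time points, where the median of all tested genes was 0.948 to 0.981. TUBB stood at 2.52 to 3.02, TUBB4B at 2.60 to 3.22 and TUBB6 at 3.99 to 4.80. TUBG1 stood at 1.10 to 1.22, near the median gene, and TTC5 at 0.609 to 0.884, below it. In percentiles of all tested genes, the α members fell at 82.0 to 93.4, the β members at 92.5 to 98.3, TUBG1 at 59.0 to 64.4 and TTC5 at 25.3 to 43.0. At 36 h, where letters link a footprint and an mRNA library, the TUBB4B ratio was 3.0 (a) and 3.09 (c) with Cas9 and 2.55 (d) and 2.66 (e) with dCas9. That of TUBA1B was 1.90, 1.82, 1.73 and 1.72 in the same order of letters. Neither gene was called in translational efficiency (edgeR adjusted p = 0.810 and 0.912). Not every member was separated: the ratios of TUBA1C (2.44, 2.51, 2.46 and 2.29), TUBG1 (1.28, 1.03, 1.14 and 1.30) and TTC5 (0.677, 0.758, 0.750 and 1.03) overlapped. Such separation was not counted over all tested genes.

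Tubulin genes with little mRNA stood further out. TUBA4A had 0.772 to 4.09 CPM of mRNA over all libraries but 48.0 to 122 CPM of footprints, a ratio of 23.3 to 41.4. TUBA8 had 2.24 to 6.86 CPM of mRNA and 66.4 to 113 CPM of footprints, a ratio of 17.3 to 27.1. TUBB8 had 18.6 to 24.2 CPM of mRNA and 140 to 320 CPM of footprints. TUBB1, a platelet β-tubulin, had 3 mRNA reads in 1 of the 9 mRNA libraries and none in the others, and 2.57 to 23.5 CPM of footprints, from 6 to 132 reads. None of the 7 other tubulins tested at 36 h and the 8 at 72 h was called between the nucleases in any comparison.

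The same genes were compared by how much of their coding sequence resembles an abundant tubulin, one of the 3 α members, TUBB, TUBB2A, TUBB2B or TUBB4B. Within 2 mismatches, 27.0% of the 28-base words of TUBA4A lay near an abundant tubulin, but 1.47% of its 50-base words did. The shares were 9.47% and 0.616% for TUBA8, 16.7% and 0.92% for TUBB1, 48.0% and 18.8% for TUBB8, 49.6% and 23.1% for TUBB3, 60.3% and 27.4% for TUBB4A, and 49.3% and 13.5% for TUBB6. Among the genes that passed the count minimum, those with no such word at either length, TUBG1, TUBG2, TUBD1, TUBE1 (tested at 72 h only) and TTC5, had ratios of 0.498 to 1.61, and those with such words stood above 1.7. Exact words also recurred in transcripts of other annotated genes of any kind, for TUBA8 99.8% at 28 bases and 99.8% at 50. These shares were 97.6% and 95.8% for TUBB3, 81.9% and 62% for TUBB8, 23.4% and 8.57% for TUBA4A, and 2.41% and 0 for TUBB1. They include other annotated genes that overlap the same locus, so they need not mean that the sequence recurs elsewhere in the genome. The part of reads from other tubulins in these footprint counts was not tested, since the counts do not mark reads that fit more than 1 gene. Comparisons of Cas9 with dCas9 set each gene's count against itself, so a change in reads from another tubulin could enter them too.

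**Figure D4:**
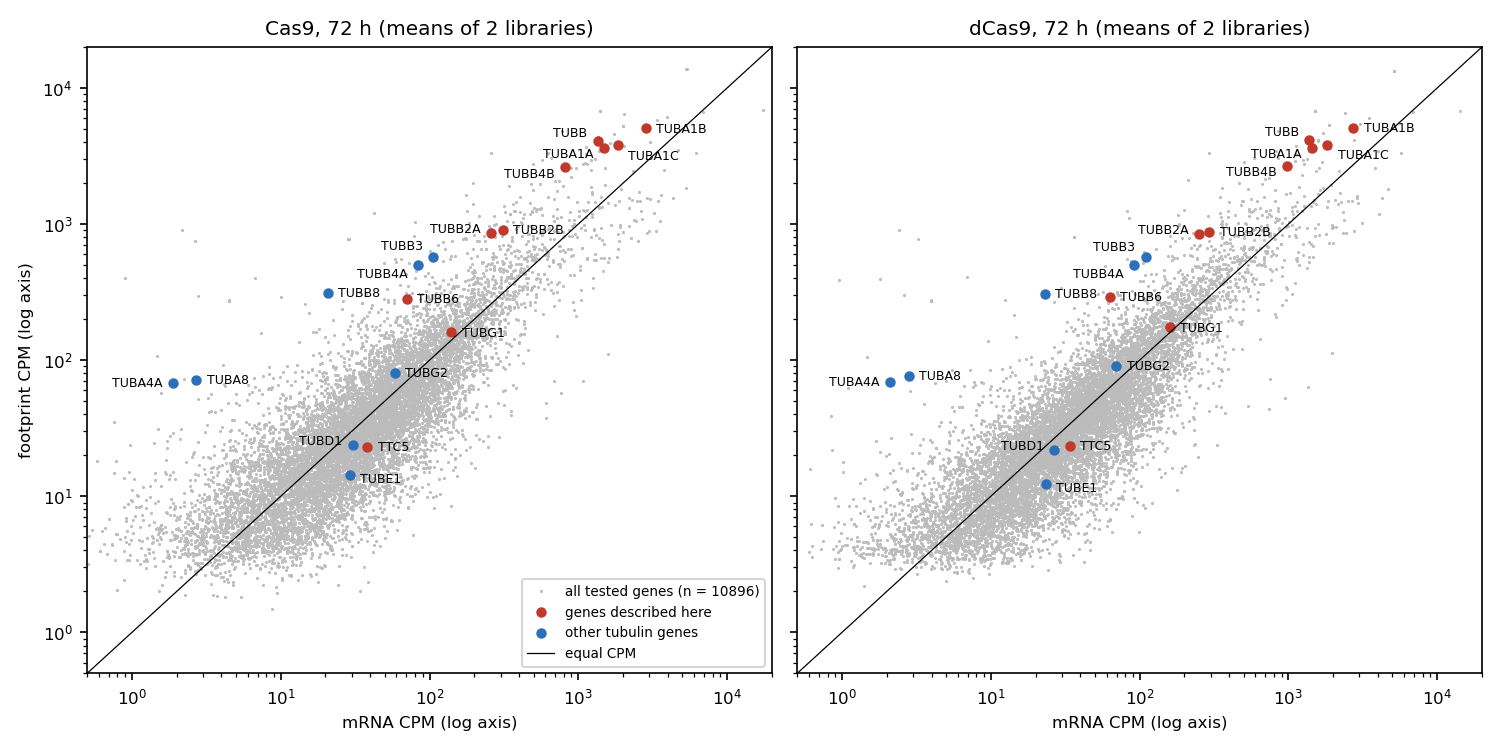
Mean footprint CPM against mean mRNA CPM of all tested genes (grey, n = 10896) at 72 h for Cas9 and dCas9, both on log axes, with the genes described here in red and other tubulin genes in blue. The α and β members lie above the line of equal CPM, TTC5 below it, and TUBA4A and TUBA8 far above it at an mRNA level under 3 CPM.

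**Figure D5:**
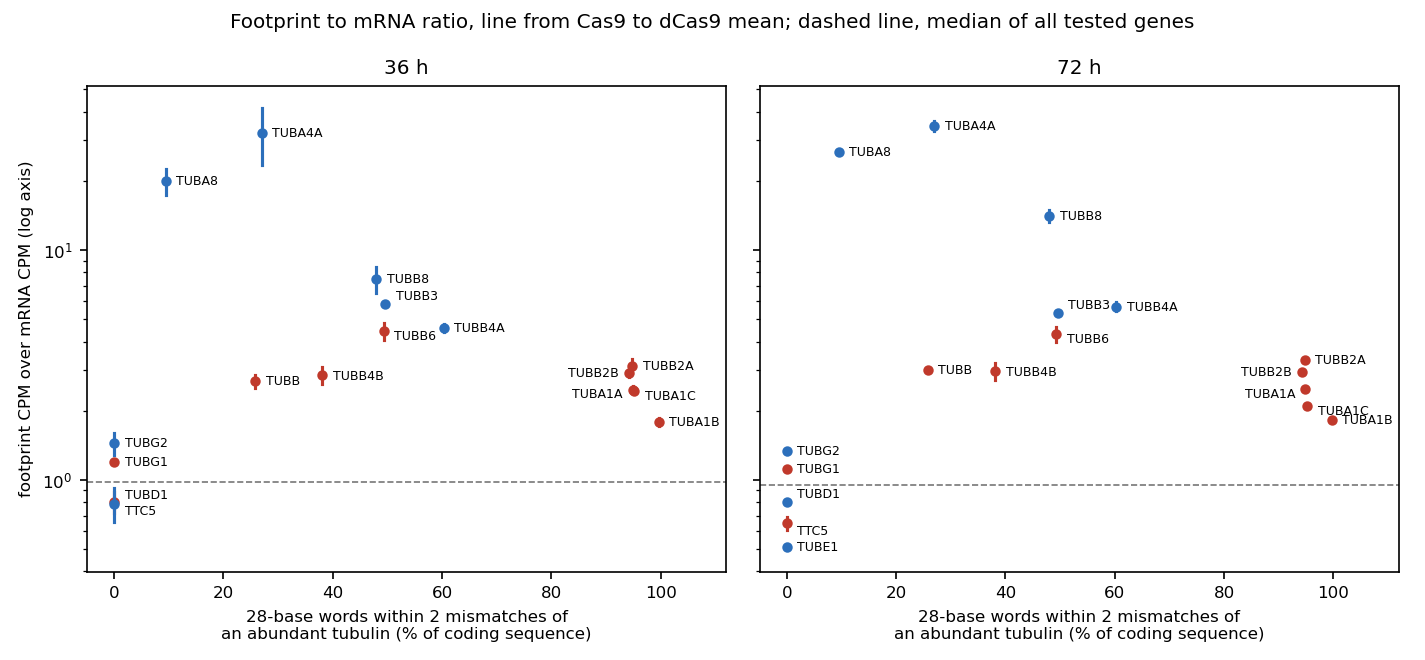
Ratio of footprint CPM to mRNA CPM (log axis) of each tested tubulin gene and TTC5 against the percent of its 28-base coding words that lie within 2 mismatches of an abundant tubulin, with a line from the lower to the higher nuclease mean and a point at their average. Genes at 0% sit on both sides of the median of all genes (dashed), from 0.498 to 1.61, and genes between 9.47% and 60.3% reach the highest ratios, TUBA4A and TUBA8 above 17.

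Among genes that act with the tubulins, calls came at 72 h only, and all of them in mRNA but 1. The lists of these genes were chosen with earlier results of these data known, so their counts are a description only. Of 7 folding cofactors, which assemble the heterodimer, TBCD, which works on β-tubulin, was called lower, at 55.9 and 67.3 CPM with Cas9 against 90.5 and 93.0 CPM, a log2 change of -0.58 (edgeR adjusted p = 0.0126). Of 10 genes of the γ-tubulin ring complex, the nucleating template of which γ-tubulin is part, TUBGCP3 (-0.44, adjusted p = 0.0615) and the recruiting factor CDK5RAP2 (-0.41, adjusted p = 0.0965) were called lower. Of all tested genes 5.2% were called lower in mRNA at 72 h. The medians of both lists in mRNA were 0.029 and 0.084, where that of all tested genes was 0.017.

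Of the 11 genes of the decay step, SCAPER and 10 CCR4-NOT subunits, the subunit CNOT3 was called. It had 31.0 and 34.9 CPM of mRNA in Cas9 and 59.7 and 57.1 CPM in dCas9 libraries. Its mRNA change was -0.83 (SE 0.11, edgeR adjusted p = 0.000926). Its footprints, 151 and 163 against 160 and 177 CPM, moved less, and its translational efficiency was called higher at 0.73 (edgeR adjusted p = 0.0726). That call was lost in 6 of 14 alternatives, among them the fits without any 1 of the 4 footprint libraries (adjusted p of 0.192 to 0.441) and without Cas9 replicate a of mRNA (0.329). The other 10 genes were not called, and the medians of the list were -0.027 in mRNA and -0.024 in footprints.

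Of 13 microtubule-binding proteins, which stabilise microtubules, track their ends or take them apart, 4 were called lower in mRNA, where 5.2% of all tested genes were. The median was -0.17 for the list and 0.017 for all tested genes. As this list too was chosen with earlier results known, neither value tests it against all genes. MAP1B fell by 0.45 (edgeR adjusted p = 0.0165), with 116 and 131 against 165 and 172 CPM. MAP1S fell by 0.51 (adjusted p = 0.0307) and MAP4 by 0.38 (adjusted p = 0.0419). MAPRE3, a plus-end tracking protein named after its value was seen, fell by 0.79 (adjusted p = 0.0758) from low levels of 2.82 to 6.41 CPM. No footprint change of these genes was called. Most calls of this and the preceding lists were lost in some alternatives. Without Cas9 replicate a of mRNA, TBCD, TUBGCP3, CDK5RAP2, MAP1B, MAP1S, MAP4 and MAPRE3 were not called (edgeR adjusted p of 0.120 to 0.980). With mRNA libraries fitted alone TUBGCP3, CDK5RAP2, MAP1B, MAP1S, MAP4 and MAPRE3 were not called either (0.115 to 0.213), and MAP1S was also lost without Cas9 replicate b (0.111). CNOT3 mRNA passed in 11 of 11 alternatives, with edgeR or DESeq2 adjusted p of 0.0254 at most, and TBCD in 10 of 11. None of the 11 tubulin-modifying enzymes tested was called.

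The genes whose profile was most like that of TUBA1B over the 17 libraries, each group of time point and library type centred on its mean, were TUBA1A (r = 0.98), MTX1 (a mitochondrial import protein, 0.93), WDR54 (0.89) and FAU (the source of a ribosomal protein, 0.89), among 8970 genes. TUBA1C (0.86) and TUBB6 (0.84) were close, while TUBB4B stood at 0.21. For TTC5 they were CLTA (a clathrin light chain, 0.91), PROSER2 (0.90) and TDRP (0.89), and its correlations with the tubulins ran from -0.35 for TUBB4B to 0.14 for TUBA1C. The libraries share few replicates per group, the α genes share reads, and the TTC5 footprints at 36 h rest on 22 to 149 reads. These values are therefore a description only.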

How the data were processed

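Ribosome footprints and mRNA of HEK293 cells were analysed in 17 libraries, assigned to nuclease, time point and replicate letter from their labels. The titles of the Cas9 footprints at 72 h write rcas9, so their nuclease came from the treatment label. The authors aligned reads to GRCh38 with GENCODE annotation (hisat2 at 36 h and tophat at 72 h per the methods, while the processing notes of the submitters name HISAT2 2.1.0) and deposited whole-number read counts per transcript, without normalization, beside the counted codons. A read that fits several genes is not marked in these counts. Replicate b of the Cas9 footprints at 36 h was not analysed here.

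Transcripts were matched by identifier to GENCODE release 44 (95.0% at 36 h and 96.5% at 72 h), and the transcript with the highest total was kept per gene and time point. Each time point was fitted with edgeR 4.0.16 in R 4.3.3 (TMM, a mean per nuclease and library type, quasi-likelihood test, false discovery rate of 0.1) over genes averaging at least 20 reads in each library type. The scripts were tested on simulated data in which 200 genes changed by 1.5 on the log2 scale. That is larger than any change of a member, so the simulation does not show whether changes of the members' size would be found. SE is the log2 fold change over the root of F. CPM divides by the TMM-scaled library size. With 2 libraries a group, p-values rest on the spread shared across genes. They also rest on the spread of footprint and mRNA libraries together, since both were in the same fit.

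Alternatives were DESeq2 1.42.0, median-ratio factors, no count minimum, the longest transcript, each library type alone, each library left out and replicate blocks. At 36 h a letter links the footprint and the mRNA library of 1 lysate, and their deviations from the group means correlated at 0.011 to 0.065. Between the nucleases at 72 h same-lettered libraries correlated at 0.011 (footprints) and -0.14 (mRNA), where 2 libraries per group give 1 value for both letters, so the letters were not taken to pair Cas9 with dCas9. The genes named were the 10 members, up to 3 called genes per list and comparison, and the 3 most similar profiles of TUBA1B and TTC5. Members and lists were chosen with earlier results of these data known.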

Additional observations from a re-analysis of the deposited data

How the results depend on the processing

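Depth limits the 36 h footprints most, where TTC5 rests on 22 to 149 reads, and reads of near-identical copies limit TUBA1A, TUBA1B, TUBA1C, TUBB2A and TUBB2B in every comparison. Of 680 alternative values for single members, 618 kept direction and side of the threshold, 4 lost and 3 gained the call, and 55 changed sign, all from small changes that were not called, and the cause was not tested.

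Over all genes, DESeq2 called 46 in footprints and 1 in translational efficiency at 36 h and 221 in translational efficiency at 72 h. Median-ratio factors called 170 in translational efficiency and 1 in footprints at 72 h. With no count minimum, 21 footprint and 2 mRNA genes were called at 36 h, and 260 in translational efficiency and 2 in footprints at 72 h. With each library type fitted alone, 2 mRNA genes were called at 36 h, and 4 footprint and 293 mRNA genes at 72 h, of which 0 were members. The replicate block changed no call of a member: it called 535 mRNA genes (50 higher, 485 lower), 88 in translational efficiency and 0 in footprints at 72 h and 0 in translational efficiency at 36 h, where the block was the lysate. Among the companion genes the block lost the translational efficiency of CNOT3 (adjusted p = 0.113). Crossing the mRNA letters, an alternative chosen after seeing the data, called 1133 in mRNA and 249 in translational efficiency.

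Leaving out 1 library gave 1 to 918 genes in footprints and 0 to 474 in translational efficiency at 36 h, both highest without dCas9 d, and 110 (without Cas9 a) to 2472 (without dCas9 b) in mRNA, 1 to 1065 (without dCas9 b) in translational efficiency and 0 to 1 in footprints at 72 h. Members called ran from 0 to 3 in mRNA and 0 to 1 in translational efficiency at 72 h, and their median from -0.090 to 0.14 and from -0.13 to 0.099.

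Sign changes at 36 h came from TUBA1A footprints with no count minimum (-0.00036) and TUBB2A mRNA with DESeq2 (-0.0022) or median-ratio factors (-0.0021). At 72 h they came with the same 2 settings from TUBB2A translational efficiency (0.0067 in each) and TUBA1C mRNA (-0.0033 in each). Leaving out 1 library at 36 h, footprint changes ran from -0.071 to 0.082 for TUBA1A, -0.059 to 0.075 for TUBA1B, -0.020 to 0.33 for TUBB6 and -0.34 to 0.10 for TUBG1. mRNA changes ran from -0.047 to 0.056 for TUBB2A, -0.0060 to 0.041 for TUBB2B and -0.090 to 0.021 for TTC5, and translational efficiency from -0.011 to 0.15 for TUBA1C and -0.27 to 0.17 for TUBG1. At 72 h footprints ran from -0.034 to 0.017 for TUBA1A, -0.027 to 0.0089 for TUBB, -0.030 to 0.089 for TUBB2A, -0.015 to 0.087 for TUBB2B, -0.088 to 0.024 for TUBB4B, -0.27 to 0.0096 for TUBG1 and -0.18 to 0.11 for TTC5. mRNA ran from -0.083 to 0.14 for TUBA1A, -0.086 to 0.15 for TUBA1B, -0.12 to 0.12 for TUBA1C, -0.19 to 0.092 for TUBB, -0.094 to 0.15 for TUBB2A and -0.053 to 0.18 for TUBB2B. Translational efficiency ran from -0.15 to 0.073 for TUBA1A, -0.17 to 0.072 for TUBA1B, -0.13 to 0.11 for TUBA1C, -0.10 to 0.18 for TUBB, -0.12 to 0.12 for TUBB2A, -0.14 to 0.088 for TUBB2B and -0.089 to 0.25 for TUBG1. With counts in place of counts per codon, the shares of TUBA1A, TUBA1B and TUBA1C at 72 h moved by more than the spread between replicates.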
